A study of Mus musculus with 12 samples.

Results

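The liver genes of amino acid breakdown and of the urea cycle were examined as a set of 45 members, followed through the RNA of 6 mouse livers. They were found through the RefSeq transcript identifiers of the deposited FPKM table (fragments mapped per length of transcript and per library size), and the FPKM of the transcripts of each gene were summed. All 45 were present, out of 24910 genes and unnamed identifiers in the table, and all 45 belonged to the 9869 genes that were tested, which reached a summed FPKM of 1 in 2 mice or more. They came from 53 transcripts, with 1 transcript each for 40 members.

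The study compared livers of C57BL/6J wild-type male mice after vertical sleeve gastrectomy, a weight loss operation on the stomach. Control mice received standard chow for 28 weeks and no surgery, so diet and surgery both separate them from the other groups. Sham and VSG mice were given a high-fat diet with 60 kcal% fat from 8 weeks of age, for 14 weeks before and 14 weeks after the operation, with a short liquid diet in recovery. In VSG mice about 80% of the stomach was removed, whereas in Sham mice the stomach was freed and pressed with forceps. RNA-seq and FAIRE-seq, which recovers DNA free of nucleosomes and so marks accessible chromatin, were performed on the same livers, with 2 mice in each group and 12 samples in all.

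Hepatocytes carry out most of the breakdown of amino acids in the body. Aminotransferases and dehydrogenases release nitrogen as glutamate and ammonium, the urea cycle turns this nitrogen into urea in the periportal zone, and glutamine synthetase binds the remaining ammonium next to the central vein. Dedicated pathways degrade the carbon skeletons of tyrosine, tryptophan, methionine and the other amino acids, and several of their first enzymes are known to be induced by glucagon, glucocorticoids and a protein-rich diet.

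The number of reads behind the FPKM values is unknown, so the depth of each library relative to Control mouse 1 was estimated. The estimate is the commonest ratio of low values between the libraries, over genes with 1 transcript, and a minority of these transcripts had that ratio. These relative depths lay between 0.674 (Sham mouse 1) and 1.56 (VSG mouse 1). Hepatocyte markers were abundant in every mouse, with Apoa1 between 6334 and 11117 FPKM, but the hepatocyte genes Apob and Hnf4a were both listed at 0 in Sham mouse 1 and at 231 and 73.3 FPKM in Sham mouse 2. A value listed at 0 can be a failed estimate of the level and was not read as an absent RNA. The 10 lymphocyte markers summed to at most 3.45 FPKM in any mouse. In whole liver, fewer cells of a type and less RNA per cell cannot be told apart.

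The members spanned a wide range of levels. In Control mice the highest mean FPKM belonged to Hpd (1495), Tat (1427), Ass1 (1305), Gnmt (1246) and Mat1a (1161), and the lowest to Gldc (22.6), Mccc1 (12.4) and Sdsl (6.85). Hpd and Tat overlapped, with 1580 and 1410 FPKM of Hpd and 1376 and 1477 FPKM of Tat in the Control mice, while the Control mice did not overlap between Tat and Ass1, Ass1 and Gnmt, or Gnmt and Mat1a. The summed FPKM of the 45 members was 16487 and 15193 for Control, 8085 and 7099 for Sham, and 10470 and 11179 for VSG mice. This sum was 3.67% and 3.62% of all FPKM in Control mice, 1.57% and 1.65% in Sham mice, and 2.15% and 2.45% in VSG mice. The 3 groups did not overlap in this sum, and the VSG mice lay between the others. Abundant members weigh most in it, and Bhmt alone held 2517 FPKM of the sum in VSG mouse 1. The median log2 deviation over the members counts each member equally. It was 0.437 and 0.431 in Control, −0.103 and −0.735 in Sham, and −0.217 and 0.328 in VSG mice. By this median VSG mouse 1 lay between the Sham mice, so Sham and VSG mice overlapped, and both Control mice were highest.

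**Figure D1:**
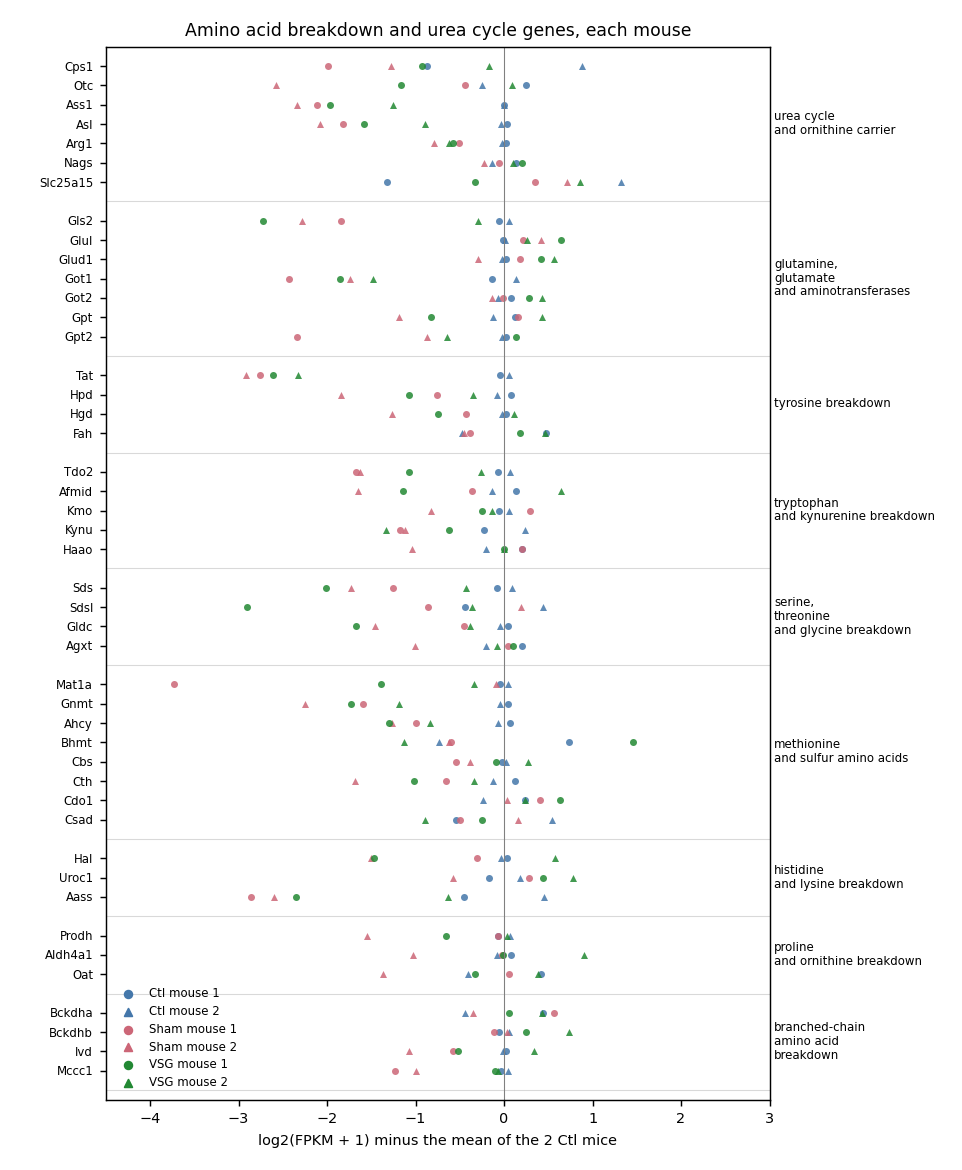
Level of each of the 45 members in each mouse, as log2(FPKM + 1) minus the mean of the Control (Ctl) mice, with members grouped by role and 1 symbol per mouse. In Sham mice 41 members had a lower group mean than in Control mice, Tat lay far to the left in both Sham and both VSG mice, and VSG mouse 2 lay to the right of VSG mouse 1 for 36 members.

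Promoters are shown for 5 abundant members with an entry in the promoter table and among the smallest p-values between Sham and Control mice. They are Tat (tyrosine aminotransferase, the first step of tyrosine breakdown), Ass1 (argininosuccinate synthase of the urea cycle), Got1 (the cytosolic aspartate aminotransferase), Gnmt (glycine N-methyltransferase, which uses up S-adenosylmethionine) and Tdo2 (tryptophan 2,3-dioxygenase, the first step of tryptophan breakdown). The windows run from 250 bases before to 50 bases after the start site, 5′ to 3′ on the strand of the gene, from RefSeq on GRCm38.p6. Capitals mark CCAAT, the nuclear receptor motif AGGTCA, the TATA motif TATAAA and the E-box CACGTG, on either strand, so that ATTGG and TGACCT are the reverse strand forms of the first pair.
Tat (chr8:109990186-109990485, plus strand): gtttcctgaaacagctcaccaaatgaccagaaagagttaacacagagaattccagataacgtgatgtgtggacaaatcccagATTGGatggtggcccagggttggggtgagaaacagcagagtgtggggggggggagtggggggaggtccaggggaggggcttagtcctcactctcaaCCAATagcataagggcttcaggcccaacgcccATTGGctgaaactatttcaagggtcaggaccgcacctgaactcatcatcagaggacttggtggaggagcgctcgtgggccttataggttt
Ass1 (chr2:31470020-31470319, plus strand): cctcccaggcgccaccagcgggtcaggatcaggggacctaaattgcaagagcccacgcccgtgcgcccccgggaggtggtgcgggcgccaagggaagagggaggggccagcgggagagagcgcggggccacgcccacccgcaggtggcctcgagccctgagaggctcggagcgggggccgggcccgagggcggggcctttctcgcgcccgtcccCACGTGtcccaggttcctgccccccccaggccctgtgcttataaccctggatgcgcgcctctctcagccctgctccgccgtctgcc
Got1 (chr19:43524556-43524855, minus strand): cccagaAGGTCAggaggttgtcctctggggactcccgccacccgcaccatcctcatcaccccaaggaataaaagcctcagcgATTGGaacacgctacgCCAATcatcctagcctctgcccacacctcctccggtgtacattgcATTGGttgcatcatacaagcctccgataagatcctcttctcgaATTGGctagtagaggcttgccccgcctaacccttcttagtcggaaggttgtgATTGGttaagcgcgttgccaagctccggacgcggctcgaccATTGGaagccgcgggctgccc
Gnmt (chr17:46729116-46729415, minus strand): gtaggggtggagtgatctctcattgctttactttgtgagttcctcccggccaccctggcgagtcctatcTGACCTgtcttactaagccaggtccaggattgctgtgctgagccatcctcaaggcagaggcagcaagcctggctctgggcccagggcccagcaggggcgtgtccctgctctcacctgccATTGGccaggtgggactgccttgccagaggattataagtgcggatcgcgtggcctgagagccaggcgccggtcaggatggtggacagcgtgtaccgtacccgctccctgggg
Tdo2 (chr3:81975679-81975978, minus strand): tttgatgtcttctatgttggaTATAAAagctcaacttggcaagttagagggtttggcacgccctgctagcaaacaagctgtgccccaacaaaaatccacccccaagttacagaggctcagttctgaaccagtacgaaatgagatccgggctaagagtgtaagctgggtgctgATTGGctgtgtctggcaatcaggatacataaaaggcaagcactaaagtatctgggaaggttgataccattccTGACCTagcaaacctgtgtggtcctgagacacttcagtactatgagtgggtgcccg

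Of the 45 members, 34 were in the promoter table, and Cps1, Asl, Arg1, Gls2, Gpt, Kynu, Sds, Sdsl, Mat1a, Cth and Cdo1 were not. A member counted if any of its windows held the motif, while the share over all promoters used 1 window per gene. CCAAT stood in 19 of the 34 members, with 6 matches in the window shown for Got1 and 3 in that of Tat. It stood in 37.9% of all 27025 promoters. AGGTCA stood in 13 of 34 members, among them Got1, Gnmt and Tdo2, against 16.0% of all promoters. The other motifs searched were less frequent. TATAAA stood in 4 members (14.2% of all promoters), TGACG in 4 (21.0%), AGAACA in 4 (19.0%), CACGTG in 3 (7.24%) and GTTAAT in 3 (7.20%), while TGACGTCA, which contains TGACG, and TTGCGCAA stood in none (1.88% and 0.185%). These matches describe the letters of the windows, and binding was not measured.

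In Sham compared to Control mice, which asks what the high-fat diet with sham surgery did, Tat fell. Its level was 1376 and 1477 FPKM in Control mice, 210 and 188 FPKM in Sham mice and 233 and 283 FPKM in VSG mice. Both Sham and both VSG mice were thus far below both Control mice, and the mean Control level was 7.17-fold that of Sham mice. The log2 difference was −2.84 (SE 0.24, adjusted p = 0.0445, limma), and Tat was the 1 member of 45 that passed the FDR of 10% as lower, where 0.193% of all genes tested did so. None passed as higher (0.0912% of all genes), and 15 members, all lower, had an unadjusted p under 0.05, as did 1076 of the 9869 genes. The log2 difference of Tat stayed between −2.92 and −2.76 over 17 alternative settings, but its call did not always hold. It was lost in fits without either Control mouse, where 1 Control mouse is left. The call was also lost without either VSG mouse, where 1 VSG mouse is left but both Sham and both Control mice remain. In limma it was also lost in a fit of the Sham and Control mice alone (adjusted p = 0.123), where 28 of 9341 genes passed. The call was lost with the replicate number as a block too (0.154), where 9 of 9869 genes passed. With 1 FPKM required in all 6 mice it was lost as well (0.130). There 0 of 6804 genes passed, so that loss was not particular to Tat.

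Across the members, 41 had a lower and 4 a higher fitted level in Sham than in Control mice, while 47.1% of all genes tested were lower. The median log2 difference was −0.83 over the members and 0.04 over all genes. For 26 members both Sham mice lay below both Control mice, where 20.4% of all genes did so, and for 1 member, Glul, both lay above (25.4% of all genes), though not after quantile normalization. By role, the 26 were 5 of 7 in the urea cycle, 3 of 7 around glutamate, 3 of 4 for tyrosine, 3 of 5 for tryptophan and 2 of 4 for serine and glycine. They were further 5 of 8 for methionine and sulfur amino acids, 2 of 3 for histidine and lysine, 1 of 3 for proline and ornithine and 2 of 4 for the branched chains. Sham mouse 2 had the lowest level of all 6 mice for 23 members and Sham mouse 1 for 9. Without Sham mouse 2 the median was −0.50 and 34 members were lower, and without Sham mouse 1 it was −1.07 with 39 lower.

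**Figure D2:**
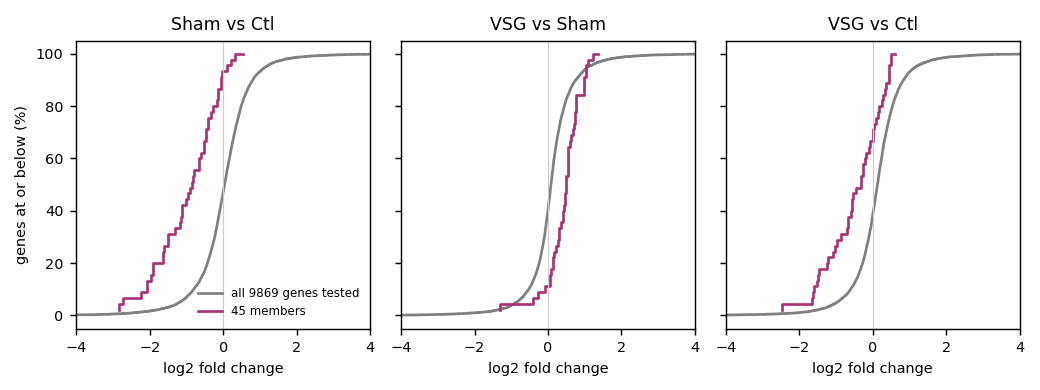
Cumulative share of genes (percent, vertical axis) at or below a log2 fold change (horizontal axis) for the 45 members and for all 9869 genes tested, 1 panel per comparison. The line of the members lies to the left of all genes in Sham against Control (Ctl) mice, with medians of −0.83 and 0.04, and mostly to the right in VSG against Sham mice, with medians of 0.49 and 0.08.

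Of the 7 urea cycle members, 5 were lower in both Sham mice than in both Control mice. Ass1, which joins citrulline to aspartate, had 1309 and 1302 FPKM in Control, 300.3 and 256 in Sham, and 334 and 545 in VSG mice. Its log2 difference was −2.23 between Sham and Control mice (SE 0.32, adjusted p = 0.159, limma), with 4.69-fold more in Control mice. Asl, which splits argininosuccinate into arginine and fumarate, had 553 and 527 FPKM in Control, 152 and 127 in Sham, and 180 and 291 in VSG mice. For these consecutive enzymes the Control mice were nearly equal, and the order of the groups was Control, VSG, Sham with no overlap. The log2 difference of Asl between Sham and Control mice was −1.95 (SE 0.31, adjusted p = 0.176).

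Cps1, the mitochondrial carbamoyl phosphate synthetase that admits ammonium to the cycle, varied more. It had 153 and 518 FPKM in Control, 70.5 and 115 in Sham, and 147 and 249.5 in VSG mice, so the Sham mice were the lowest while the Control mice differed 3.38-fold from each other. Otc, ornithine transcarbamylase, had 179 and 126 FPKM in Control, 110.3 and 24.4 in Sham, and 66.3 and 159.6 in VSG mice. The Sham mice differed 4.53-fold from each other, and the VSG mice lay on either side of Sham mouse 1. The log2 differences in Sham compared to Control mice were −1.63 for Cps1 (SE 0.67) and −1.51 for Otc (SE 0.82), with adjusted p-values of 0.473 and 0.565.

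Arg1, the arginase that releases urea, had 879 and 856 FPKM in Control, 608 and 500.2 in Sham, and 579.8 and 565 in VSG mice. Both high-fat groups lay below Control mice with a log2 difference of −0.65 in Sham (SE 0.24, adjusted p = 0.439) and −0.60 in VSG mice (SE 0.24, adjusted p = 0.537). Nags, which makes the activator of carbamoyl phosphate synthetase, had 30.7 and 25.4 FPKM in Control, 26.8 and 23.8 in Sham, and 32.2 and 30.1 in VSG mice. Slc25a15, the mitochondrial ornithine carrier, had 11.4 and 76.3 FPKM in Control, 38.5 and 49.7 in Sham, and 23.7 and 55.3 in VSG mice. The Sham mice lay inside the range of the Control mice for Slc25a15. For Nags the Control mice overlapped with both other groups, while both VSG mice were above both Sham mice.

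**Figure D3:**
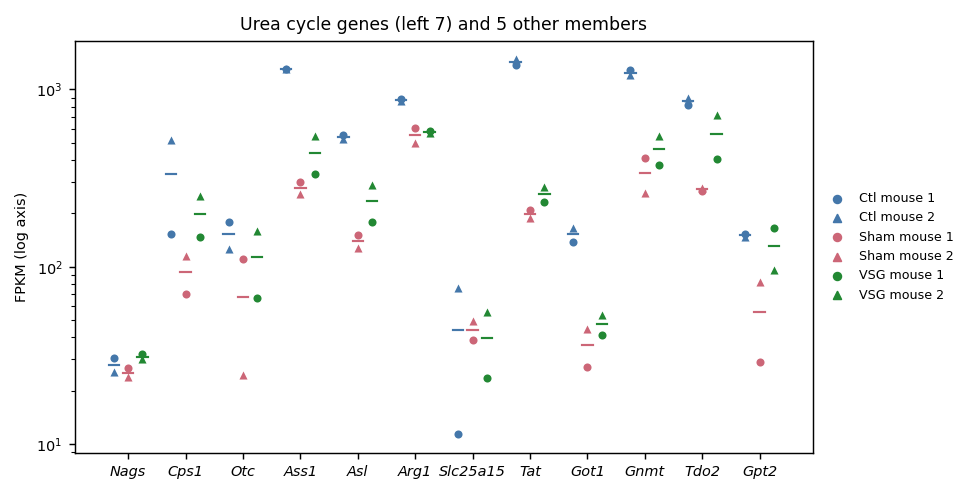
FPKM (log axis) of the 7 urea cycle members and of Tat, Got1, Gnmt, Tdo2 and Gpt2 in each mouse, with a bar at the mean of each group (Ctl is Control). Ass1, Asl, Tat and Gnmt show nearly equal Control mice above all other mice, while Cps1, Otc and Slc25a15 show wide spread within a group.

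Among the genes of glutamine, glutamate and the aminotransferases, 3 of 7 were below Control in both Sham mice. Got1 had 138 and 166 FPKM in Control, 27.4 and 44.7 in Sham, and 41.3 and 53.6 in VSG mice. All 4 high-fat mice were below both Control mice, with log2 differences of −2.08 in Sham (SE 0.32, adjusted p = 0.172, limma) and −1.67 in VSG mice (SE 0.32, adjusted p = 0.301). Got2, the mitochondrial aspartate aminotransferase, had 144 and 130.2 FPKM in Control, 136 and 125 in Sham, and 166 and 185 in VSG mice. For Got2 the VSG mice lay above all others and Sham and Control mice overlapped. Gpt2, the mitochondrial alanine aminotransferase, had 153 and 148 FPKM in Control, 29.0 and 81.8 in Sham, and 165 and 96.2 in VSG mice.

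Glul, the glutamine synthetase, was the member that lay above Control in both Sham mice. It had 338 and 345 FPKM in Control, 395 and 456 in Sham, and 533 and 408 in VSG mice, a log2 difference of 0.31 in Sham (SE 0.25, adjusted p = 0.669) and 0.45 in VSG mice (SE 0.25, adjusted p = 0.656). Glud1, glutamate dehydrogenase, had 228 and 221 FPKM in Control, 255 and 183 in Sham, and 299 and 332 in VSG mice. The VSG mice were the highest for Glud1. Gls2, the liver glutaminase, had a log2 difference of −2.06 between Sham and Control mice (SE 0.80), with VSG mouse 1 at 18.6 and VSG mouse 2 at 104 FPKM, and for Gpt the Sham mice enclosed the Control mice.

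Beyond Tat, the tyrosine pathway members Hpd, Hgd and Fah, which act in sequence, had log2 differences between Sham and Control mice of −1.30, −0.85 and −0.42. Both Sham mice were below both Control mice for Hpd and Hgd, and the groups overlapped for Fah. In the tryptophan pathway, Tdo2 had 819 and 897 FPKM in Control, 269 and 277 in Sham, and 407 and 714 in VSG mice. The Sham mice were nearly equal and lowest, and the VSG mice lay between, with a log2 difference of −1.65 in Sham compared to Control mice (SE 0.34, adjusted p = 0.271). Afmid and Kynu were also below Control in both Sham mice, while Kmo and Haao, which act on kynurenine and on 3-hydroxyanthranilate, overlapped.

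In the methionine cycle, Gnmt had 1286 and 1205 FPKM in Control, 413 and 261 in Sham, and 375 and 546 in VSG mice. All 4 high-fat mice lay below both Control mice, with a log2 difference of −1.92 in Sham (SE 0.35, adjusted p = 0.215, limma) and −1.46 in VSG mice (SE 0.35, adjusted p = 0.361). Ahcy, which hydrolyses S-adenosylhomocysteine, was likewise lower in all 4, with a log2 difference of −1.13 in Sham (SE 0.29) and −1.07 in VSG mice (SE 0.29). Mat1a, which makes S-adenosylmethionine, was listed at 1124 and 1199 FPKM in Control mice but at 86.6 in Sham mouse 1 and 1088 in Sham mouse 2. Bhmt, which remethylates homocysteine, ranged from 553 to 1526 FPKM in Control and from 419.7 to 2517 FPKM in VSG mice. Mat1a and Bhmt were singled out after their values were seen, because their spread within a group was among the widest of the abundant members.

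In the branch from homocysteine to cysteine and taurine, the members did not share a direction. Cbs, cystathionine beta-synthase, had 94.6 and 97.2 FPKM in Control, 65.5 and 73.1 in Sham, and 89.7 and 116 in VSG mice. In this sum over transcripts the Sham mice were the lowest for Cbs, but the sum includes a transcript listed at 0 in Sham mouse 1. That transcript was at 24.4 FPKM in Sham mouse 2. In the most abundant transcript the groups overlapped, with 49.6 and 48.4 FPKM in Control, 54.1 and 37.2 in Sham, and 49.3 and 51.4 in VSG mice. In the remaining transcript the Sham mice were the lowest (11.4 and 11.5 FPKM). Cth, which acts next, was also lower in both Sham mice. Cdo1, cysteine dioxygenase, had 621 and 446 FPKM in Control, 700.1 and 539.9 in Sham, and 814 and 618 in VSG mice. Csad, which makes hypotaurine, had 44.3 and 95.0 FPKM in Control, 45.8 and 72.4 in Sham, and 54.4 and 34.4 in VSG mice. For Cdo1 and Csad the Sham and Control mice overlapped.

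Among serine, threonine and glycine members, Sds, the serine dehydratase, was below Control in both Sham mice, with a log2 difference of −1.49 (SE 0.56). Gldc, of the glycine cleavage system, had 23.3 and 21.9 FPKM in Control, 16.2 and 7.60 in Sham, and 6.37 and 17.1 in VSG mice, so all high-fat mice were below Control. Sdsl, a paralog of Sds, had 4.53 and 9.16 FPKM in Control, 3.13 and 7.56 in Sham, and was listed at 0 in VSG mouse 1 and at 4.83 in VSG mouse 2. Agxt, the glyoxylate aminotransferase, overlapped between all groups.

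Aass, the first enzyme of lysine breakdown, had 66.2 and 125 FPKM in Control, 11.7 and 14.2 in Sham, and 17.0 and 58.3 in VSG mice. Its log2 difference of −2.73 between Sham and Control mice (SE 0.65, adjusted p = 0.308) was close in size to that of Tat with a larger error. Aass is outside the rule for members given with values in every mouse. Hal, the histidine ammonia-lyase, and Prodh, the proline dehydrogenase, were also below Control in both Sham mice, while Uroc1, Aldh4a1 and Oat overlapped. Bckdha and Bckdhb encode the subunits of the dehydrogenase shared by all branched-chain amino acids. Bckdha had 136 and 73.2 FPKM in Control, 148 and 78.3 in Sham, and 104 and 135 in VSG mice, and Bckdhb 35.2 and 38.3, 33.8 and 37.6, and 43.9 and 62.0. Sham and Control mice overlapped for both subunits. Ivd and Mccc1, which act on the leucine skeleton, were below Control in both Sham mice, Mccc1 by a log2 difference of −1.11 (SE 0.20, adjusted p = 0.215, limma).

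In VSG compared to Sham mice, on the same diet, no member passed the FDR of 10% in limma in either direction. Of all genes tested, 0.0304% passed as higher and 0.0203% as lower. The smallest adjusted p of a member was 0.616, for Mccc1. The fitted level was higher in VSG than in Sham mice for 41 of 45 members, where 59.6% of all genes tested were higher, with a median log2 difference of 0.49 against 0.08 over all genes. For 17 members both VSG mice were above both Sham mice, where 18.5% of all genes were, and for none were both below (9.78% of all genes). Since Sham mice are in both comparisons, this direction and the one between Sham and Control mice are not independent.

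Mccc1, a subunit of methylcrotonyl-CoA carboxylase in leucine breakdown, had 12.1 and 12.8 FPKM in Control, 4.72 and 5.76 in Sham, and 11.5 and 11.8 in VSG mice. Both VSG mice were just under the Control mice and above both Sham mice, with a log2 difference of 1.03 from Sham (SE 0.20, unadjusted p = 0.00405, limma). Tdo2 was the other member with an unadjusted p under 0.05 (0.0346), with a log2 difference of 0.98 (SE 0.34, adjusted p = 0.944), where 479 of 9869 genes had one. Gpt2 (1.35, SE 0.56), Cbs (0.55, SE 0.23), Cps1 (1.08, SE 0.67), Asl (0.72, SE 0.31) and Ass1 (0.62, SE 0.32) were higher in both VSG mice than in both Sham mice on the log2 scale. Their adjusted p-values were all 0.944. The sum of Cbs includes a transcript listed at 0 in Sham mouse 1. The members with a lower fitted level were Sdsl, Csad, Slc25a15 and Gldc, with log2 differences of −1.30, −0.40, −0.27 and −0.07, and their groups overlapped.

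The VSG mice differed from each other in the members. VSG mouse 2 was above VSG mouse 1 for 36 of 45 members and for 52.1% of all genes tested. Among the 26 members below Control in both Sham mice, VSG mouse 2 lay above both Sham mice for 23 and VSG mouse 1 for 11, against 71.2% and 52.0% of the 2018 genes of the table chosen in the same way. On the log2(FPKM + 1) scale, with the mean of Sham mice at 0% and that of Control mice at 100%, the median position of these 26 was 13.3% for VSG mouse 1 and 75.1% for VSG mouse 2, and that of the 2018 genes was 40.9% and 80.7%. Low Sham values chose both sets and also set the 0%, so these positions are a description. Mouse 2 was above mouse 1 for 23 of the 26, and for 67.1% of the 2018 genes. Gpt2, Arg1 and Kynu were the exceptions.

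The median log2 difference between VSG and Sham mice was 0.83 when VSG mouse 1 was left out. With VSG mouse 2 left out instead, it was 0.30, with 34 members higher. Without Sham mouse 2, in which acute phase proteins were highest, it was 0.20 with 29 members higher. The levels of the members also spread more within the high-fat groups. A more than 2-fold difference within a group was seen for 4 members among Control mice, for 15 among Sham mice and for 12 among VSG mice, against 9.66%, 21.7% and 15.8% of all genes.

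**Figure D4:**
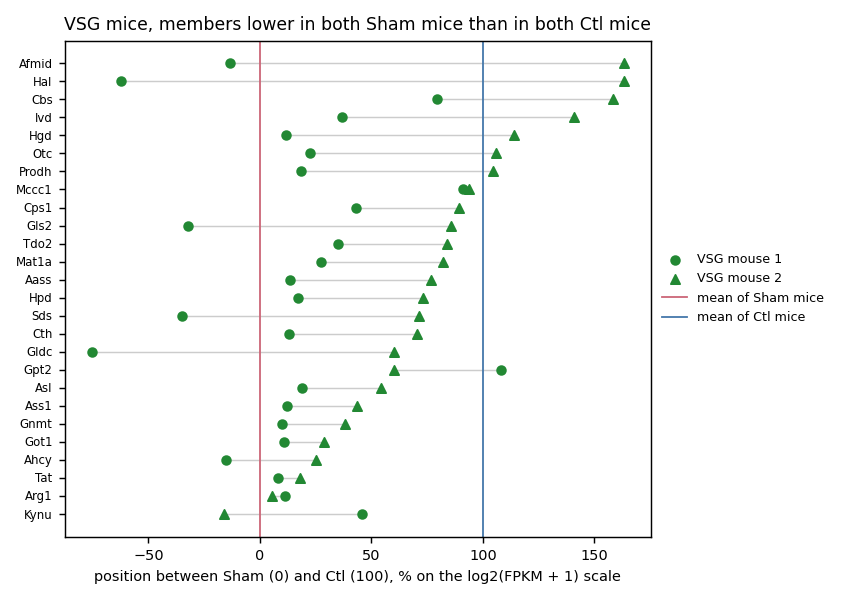
Position of each VSG mouse between the mean of Sham mice (0%) and the mean of Control (Ctl) mice (100%) on the log2(FPKM + 1) scale, for the 26 members below Control in both Sham mice. Circles (VSG mouse 1) have a median of 13.3% and triangles (VSG mouse 2) of 75.1%, and the line joins the mice for a member.

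In VSG compared to Control mice, which differ in diet and surgery, Tat was again the 1 member that passed as lower, with a log2 difference of −2.47 (SE 0.24, adjusted p = 0.0679, limma) and 5.54-fold more in Control mice. Of all genes, 0.182% passed as lower and 0.101% as higher. This log2 difference stayed between −2.78 and −2.33 over 17 alternative settings. The call was lost without either Control or either VSG mouse, where 1 mouse is left in a group. In limma it was also lost with no filter on FPKM (adjusted p = 0.103), where 41 of 17460 genes passed. With the replicate number as a block it was lost too (0.234), where 10 of 9869 genes passed. With 1 FPKM required in all 6 mice it was lost as well (0.157), where 0 of 6804 genes passed. The members most clearly below Control besides Tat were Got1, Ass1 and Gnmt, with log2 differences of −1.67, −1.61 (SE 0.32 each) and −1.46 (SE 0.35). Those with the smallest unadjusted p in the other direction were Bckdhb, Glud1, Glul and Got2, with log2 differences of 0.50, 0.49, 0.45 and 0.35. Both VSG mice were above both Control mice for these 4 genes.

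Of the 45 members, 30 had a lower and 15 a higher fitted level in VSG than in Control mice, against 38.6% and 61.3% of all genes. Both VSG mice were below both Control mice for 18 members, where 14.8% of all genes were, and above for 5 (33.7% of all genes), of which Uroc1 was the other. The median log2 difference was −0.31 over members and 0.13 over all genes. Leaving out VSG mouse 1 gave −0.07, and leaving out VSG mouse 2 gave −0.62. With each mouse scaled so that the median gene did not move, the median of all genes went from 0.13 to 0.00, and 34 members were lower and 11 higher.

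The remaining genes of the pathway were read from lists that held no member. Of 57 other amino acid breakdown genes tested, none passed in limma in any comparison, 4 in each direction had an unadjusted p under 0.05 between Sham and Control mice, 36 were lower in Sham than in Control mice and 44 higher in VSG than in Sham mice, with median log2 differences of −0.36 and 0.37. Dmgdh, which demethylates dimethylglycine, had 181 and 161 FPKM in Control, 87.2 and 52.9 in Sham, and 116 and 108 in VSG mice. It was lowest in the Sham mice, with a log2 difference of −1.32 between Sham and Control mice (SE 0.30).

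Of 12 amino acid transporters tested, 1 passed, as higher in VSG than in Control mice. This was Slc38a7, a glutamine transporter, listed at 0 in all Control and Sham mice and at 4.78 and 6.67 FPKM in the VSG mice (adjusted p = 0.0679, limma). Its call rests on those values at 0, which may be failed estimates, since Slc38a4, another transporter of liver, was listed at 0 in all 6 mice, and no fold was formed. Slc38a2, which takes up neutral amino acids, had 67.7 and 80.1 FPKM in Control, 16.7 and 28.5 in Sham, and 10.3 and 16.7 in VSG mice, with a log2 difference of −2.40 between VSG and Control mice (SE 0.37, adjusted p = 0.217). The median over the transporters was −0.53 in Sham compared to Control mice.

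Genes of amino acid synthesis and of the Atf4 response to amino acid shortage lay on the other side. Of 10 tested, 9 were higher in Sham than in Control mice and all 10 lower in VSG than in Sham mice, with medians of 1.60 and −0.74. None passed the FDR in limma. An unadjusted p under 0.05 was found for 3 between Sham and Control mice and for 0 between VSG and Sham mice. For 4 of the 10 both VSG mice lay below both Sham mice, against 9.78% of all genes. The summed FPKM of the 13 listed genes was 478 and 665 in Sham, and 576 and 226 in VSG mice. Trib3, a pseudokinase of this response, had 1.34 and 0.733 FPKM in Control, 3.13 and 10.1 in Sham, and 8.28 and 3.63 in VSG mice, and Nupr1 was between 1.504 and 1.605 FPKM in Control, 4.33 and 10.6 in Sham, and 3.36 and 3.63 in VSG mice. Asns, asparagine synthetase, reached 14.0 FPKM in Sham mouse 2 and at most 3.19 in every other mouse. Asns is outside the rule for named genes and was chosen after its values were seen.

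Of 16 hormone and transcriptional regulators of amino acid breakdown, 8 were lower and 8 higher in Sham than in Control mice, with a median of −0.02, none past the FDR and 1 with an unadjusted p under 0.05 (limma). Klf15, a transcription factor known to drive amino acid breakdown genes in fasting, had 26.6 and 52.8 FPKM in Control, 15.2 and 4.83 in Sham, and 25.3 and 52.2 in VSG mice. Both Sham mice were below all others, with a log2 difference of −1.99 (SE 0.67, adjusted p = 0.411). Cebpa had 103 and 109 FPKM in Control, 119.8 and 114 in Sham, and 145 and 144 in VSG mice. Of 8 glucagon and fasting response genes, 6 were lower in Sham than in Control mice, with a median of −0.99, none past the FDR and 2 with an unadjusted p under 0.05 (limma). G6pc, the glucose-6-phosphatase, was lower in both Sham mice with a log2 difference of −2.90 (SE 0.42, adjusted p = 0.159), and Ppp1r3c, a glycogen targeting subunit, was higher in VSG than in Control mice by 1.84 (SE 0.38).

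Periportal and pericentral genes outside the members had medians of 0.21 and 0.39 in Sham compared to Control mice, over 9 and 11 genes tested. Of these, 5 and 6 were higher, and none passed the FDR in limma. At an unadjusted p under 0.05, 3 periportal genes were lower and 1 higher, and 1 pericentral gene was lower. The summed FPKM of the periportal genes was 2875 and 2758 in Control, and 1904 and 2166 in Sham mice. That of the pericentral genes was 5190 and 4986 in Control, and 6405 and 2719 in Sham mice. Cyp2f2 and G6pc, both periportal, had log2 differences of −2.38 (SE 0.66) and −2.90, and the pericentral Cyp27a1 and Lect2 had −1.04 (SE 0.29) between Sham and Control and 2.29 (SE 0.60) between VSG and Control mice. Acute phase proteins, which the liver secretes in inflammation, were read beside the members. Of 16 tested, none passed the FDR in limma in any comparison. Orm2 and Apcs were higher in Sham than in Control mice by log2 differences of 5.02 (SE 0.72, adjusted p = 0.159) and 4.73 (SE 0.95, adjusted p = 0.257). The summed FPKM over 17 acute phase genes was 17642 and 18549 in Control, 39577 and 72324 in Sham, and 29923 and 14225 in VSG mice. Sham mouse 2 was the highest and VSG mouse 2 the lowest in this sum, and Sham mouse 2 was also the lowest mouse for 23 members. As FPKM are relative to the library total, an RNA that takes a larger share lowers all others, and its part in the levels of the members was not tested.

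Marker lists of other cells were also read beside the members, and no marker of any list passed the FDR of limma in any comparison. At an unadjusted p under 0.05 between Sham and Control mice there were 4 Kupffer cell, 5 sinusoidal endothelial, 2 stellate, 1 cholangiocyte and 2 neutrophil markers and 0 hepatocyte markers. The 5 hepatocyte markers measured had lower fitted levels in Sham than in Control mice, with a median of −0.99 and overlapping groups for each. Without Apob and Hnf4a, left out after their values at 0 were seen, the median of the other 3 was −0.40, and 0.81 in VSG compared to Sham mice. Medians in Sham compared to Control mice were 1.03 over 11 Kupffer cell and macrophage markers, −1.18 over 9 sinusoidal endothelial, −0.61 over 6 stellate, 0.94 over 3 cholangiocyte and 1.26 over 4 neutrophil markers. In VSG compared to Sham mice they were 0.63, 0.91, 1.03, −0.67 and −0.79 in the same order, and 1.05 over the hepatocyte markers. In VSG compared to Control mice they were 1.85, −0.67, 0.32, 0.56 and 0.51 in the same order, and 0.06 over the hepatocyte markers. There 11 of 11 Kupffer cell and macrophage markers had a higher fitted level, against 61.3% of all genes, and 7 had an unadjusted p under 0.05 (limma). Both VSG mice lay above both Control mice for 8 of these 11, against 33.7% of all genes. The sum of the 11 was 105 FPKM in VSG mouse 1 and 342 in VSG mouse 2. The summed FPKM per mouse ranged from 36.3 to 342 for Kupffer cells, 8.17 to 63.1 for sinusoidal endothelium, 33.9 to 191 for cholangiocytes, 6.99 to 46.7 for neutrophils and 0.327 to 3.62 for exocrine pancreas. Their part in the levels of the members was not tested.

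In the FAIRE-seq data, each group had 1 peak list that combined its mice, so promoter accessibility has no value per mouse and no test. A peak within 1000 bp of the start site (gene positions on NCBIM37, the mm9 build of the peaks) was present for 43 of 45 members in the Control list, 43 in the Sham list and 42 in the VSG list, where 85.6%, 85.2% and 86.5% of 9565 genes had one. The 42 members with a peak in VSG mice had one in all 3 lists. Otc had a weak promoter peak in Control and Sham mice, at the 15.4th and 9.13th percentile of signal in its list, and none in the VSG list. Cps1 and Kmo had none in any list. The promoter of Tat, whose RNA fell, held a peak in all 3 lists.

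The signal of a peak (F-seq, a smoothed read density) was compared only as a percentile within its list, since the lists differ in depth and length. At Tat, with the start site at chr8:112514337, the strongest peak was at the 30.5th percentile in Control, the 47.5th in Sham and the 27.2nd in VSG mice. At Ass1 it was at the 87.3rd, 82.7th and 94.0th percentile, and at Tdo2 at the 78.6th, 95.5th and 82.8th. Got1 and Gnmt lay between the 92.2nd and the 97.5th percentile in every list. The percentile was lower in Sham than in Control mice for 19 of 42 members (45.2%), where 55.3% of 7922 genes with a peak in all lists were lower, and higher in VSG than in Sham mice for 19 of 42, where 64.9% of genes were.

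**Figure D5:**
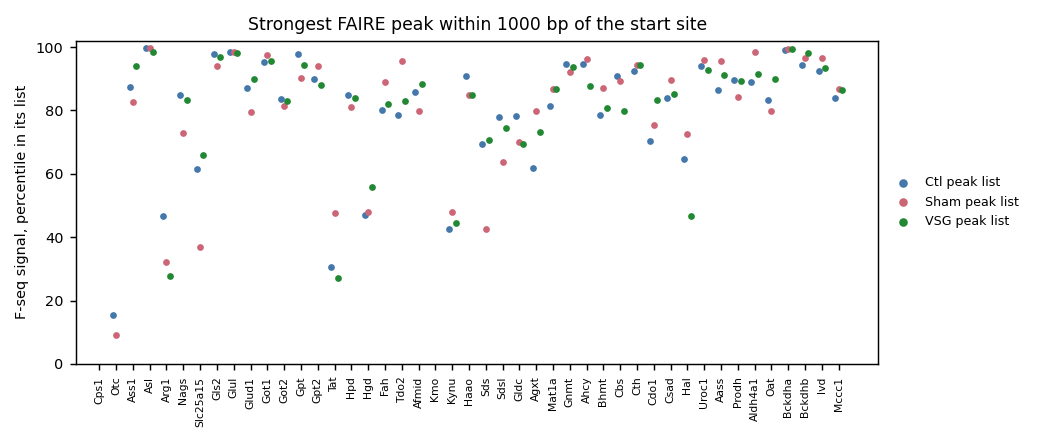
Percentile of the F-seq signal of the strongest FAIRE peak within 1000 bp of the start site of each member, in the peak list of each group (1 list of 2 mice each, Ctl is Control). In all lists 35 members lie above the 60th percentile, Cps1 and Kmo have no peak, and Otc has none in the VSG list.

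The authors' lists of sites with variable accessibility give positions without values. No member had such a site within 10 kb of its gene in any of the 4 lists. Of 9565 genes, 2.76% had one among the 414 sites more accessible in VSG than in Sham mice, 0.460% among the 99 sites more accessible in Sham mice, and 0.261% and 1.28% among the lists of 61 and 175 sites that were higher or lower in Sham mice and reversible. Within 50 kb, 1 member had a site, Tat, with chr8:112485947-112486282 more accessible in VSG than in Sham mice, where 5.83% of the 9565 genes had such a site at this distance. It lay 28055 bp from the start site of Tat and on the start site of another gene, Marveld3.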

How the data were processed

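RNA-seq and FAIRE-seq of 6 livers were read from the deposited tables. For RNA, the authors aligned reads with TopHat2 to mm9 and deposited Cufflinks FPKM for every RefSeq transcript in every mouse. For FAIRE, the deposited peaks carry an F-seq signal, and the authors retained those that IDR found reproducible between both mice of a group. The labels give poly(A) selection for RNA and the paper gives removal of ribosomal RNA, and the difference could not be settled. The authors' comparison tables hold DESeq2 fold changes and p-values and were not used.

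Of 34933 transcripts, 34046 matched a symbol in the RefSeq gene table (GRCm38.p6, names only), and 887 kept their identifier. FPKM summed per gene were fitted as log2(FPKM + 1) in limma 3.58.1 (R 4.3.3) with a variance trend, over all 6 mice, for genes with at least 1 FPKM in 2 mice, with Benjamini-Hochberg adjustment over all genes and an FDR of 10% (2-sided). The pseudocount of 1 understates the change of low genes. The replicate spread rests on 2 mice per group, and exact permutation of 2 against 2 cannot go below p = 0.333. Members and lists were chosen with earlier results of these data known. Values in every mouse are given for the urea cycle, for called members and for the 4 members with the smallest p in each direction of each comparison, and 2 genes per pathway list were named by smallest p, of which 1 is not reported here.

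In simulated data for Sham against Control over 9504 genes, 1 of 100 genes changed 2-fold and 44 of 100 changed 4-fold were called, with 5 false calls. FPKM of genes with close copies depend on how the authors divided shared reads. Whether the paralogs Sds and Sdsl share reads was not examined. Python 3.11.15, numpy 2.4.6, pandas 2.3.3 and matplotlib 3.10.9 were used. Alternatives changed the pseudocount (0.1 and 5), filter, scaling, transcript choice, variance model, samples and peak window.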

Additional observations from a re-analysis of the deposited data

How the results depend on the processing

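The direction of the medians over members held in all 3 comparisons under every alternative run. The count of members past the FDR did not. For Sham against Control mice it was 1 in limma, where 28 of 9869 genes passed. It was 0 with an FPKM of at least 1 required in all 6 mice, as over all 6804 genes tested (adjusted p of Tat 0.130). Sdsl was left out there, and 44 members were tested. In the 2 groups alone it was 0, where 28 of 9341 genes passed. For VSG against Control mice it was 0 with no filter on FPKM (Tat 0.103), where 41 of 17460 genes passed. With the filter in all 6 mice it was again 0 (0.157), as over all 6804 genes. Fits without 1 mouse leave 1 mouse in a group, so no count is given for them. The cause was not tested. In VSG against Sham mice, the members whose groups do not overlap numbered 9 after quantile normalization and 17 before, and 38 members were higher after quantile normalization or median scaling against 41 before. The median over all genes went from 0.08 to −0.015 (quantile) and −0.0038 (median scaling), and that over members from 0.49 to 0.33 and 0.39. Shares of all genes were not counted under these settings, so the drops cannot be assigned to the members. Sites within 50 kb, more accessible in VSG mice, gave 1 member, against 5.83% of all genes.

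With the replicate number as a replicate block, 0 members passed in limma in each comparison (adjusted p of Tat 0.154 and 0.234). Of 9869 genes, 9 passed between Sham and Control, 0 between VSG and Sham and 10 between VSG and Control mice. The deviations of same-numbered mice from their group means correlated over genes at 0.118, 0.0643 and 0.0390. With 2 mice in a group this cannot decide whether equal numbers mark a shared batch. The labels give no pairing, and the main fit used none.

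Among named members, Arg1 in VSG against Sham mice turned from 0.05 to −0.053 under median scaling and −0.0061 under quantile normalization, and Nags in VSG against Control mice to −0.0046 under median scaling. Over left-out replicates, log2 differences between Sham and Control ranged from −0.015 to 0.46 for Cdo1, −0.79 to 1.85 for Slc25a15 and −0.35 to 0.56 for Bckdha. Between VSG and Sham they ranged from −0.86 to 0.33 for Slc25a15, −0.72 to 0.58 for Gldc, −0.10 to 2.03 for Otc and −0.087 to 0.19 for Arg1. Between VSG and Control they ranged from −1.43 to 0.32 for Cps1, −1.17 to 0.089 for Otc and −1.05 to 1.59 for Slc25a15.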
